A study of Mus musculus with 16 samples.

Results

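Cerebellum of mice aged 24 to 26 months was compared with cerebellum of mice aged 21 to 23 months, with both genotypes of the series in each age class. The members are the 8 arrays whose titles name cerebellum, of 16 arrays in all, 4 older and 4 younger. The older group held wild types of 26 months (replicate 1) and 24 months (replicate 2) and mutants of 24 months (replicates 1 and 2). The younger group held wild types of 21 months (replicate 3) and 23 months (replicate 4) and mutants of 21 months (replicates 3 and 4). The mutants overexpress a mutant form of Twinkle, the helicase that unwinds mitochondrial DNA for its replication. The sources used here state neither the transgene's promoter nor strain or sex. Replicates 1 and 2 are the older mice of each genotype and replicates 3 and 4 the younger ones, so age and whatever else those numbers share cannot be told apart. The labels call the replicates biological but name no animals, so p-values reflect only how these samples scatter, which may be technical.

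Most cells of the cerebellum are granule neurons, which stand beside Purkinje cells, interneurons, Bergmann glia and other astrocytes, oligodendrocytes and microglia, the resident macrophages of the brain. In ageing rodent brain, microglia are known to accumulate lysosomal material and to express genes of a phagocytic state that is also seen around amyloid plaques. Astrocytes of old brain are known for higher expression of Gfap, Serpina3n and complement genes.

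Total RNA was labelled as biotinylated cRNA and hybridised to 1 array per sample. The deposited values are relative: the scale, whose base is unstated, is read as log2, and nearly every probe set was centred on its median over the 8 arrays of its region. A value says how far an array lies above or below the middle of the 8 cerebellum arrays and not how abundant a transcript is, so the tissue label cannot be checked from levels and genes cannot be ranked by them. Where the age classes of a probe set do not overlap, its lowest older and highest younger value mirror each other around 0 by construction, and likewise for lower genes. Age differences are older minus younger (log2) with the standard error (SE) of a limma fit that holds genotype as a term, with n = 4 arrays per age class. P-values were adjusted by the Benjamini-Hochberg method over 18181 genes, and the median SE was 0.072.

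The arrays differed in technical values. Poly-A spike-in controls averaged 0.62 on older mutant replicate 2 and 0.65 on younger mutant replicate 4, against -0.22 to 0.05 on the other 6 arrays. Hybridization spike-ins averaged -0.72 on younger wild type replicate 4 and 0.27 on younger wild type replicate 3, against -0.11 to 0.12 on the others. The relative 3′ minus 5′ value of the beta-actin controls was -0.07 to 0.05 in the older and 0.005 to 0.14 in the younger mice, overlapping but leaning with age, and its part in the results was not tested. The standard deviation over all genes ran from 0.095 to 0.17 and was highest on younger wild type replicate 3. Twnk, the gene of Twinkle, lay between -0.15 and 0.11 over the 8 arrays with the genotypes overlapping, so its probe set does not check the genotype labels.

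Few genes separated the age classes beyond the spread between samples. With limma and an adjusted p under 0.05, 4 genes rose in the older mice (0.022% of genes tested) and 0 fell (0%). At an unadjusted p under 0.05, 473 genes were higher (2.6%) and 258 lower (1.42%). Chance alone would put a share of about 0.05 of genes under that p. The 731 genes together do not exceed it, nor do the unadjusted counts given below for genotypes and regions. All 4 older values lay above all 4 younger values in 271 genes (1.49%) and below them in 139 genes (0.765%). Some genes part groups of 4 by chance, so these shares serve as the background for the lists below. The 4 genes called were Lgals3, Cd68, Lyz1 and Lyz2. Lgals3, Cd68 and Lyz2 are known from phagocytes. When each of the 8 arrays was left out in turn, 1 or 2 genes were called, Lgals3 every time. Without both arrays high in poly-A spike-ins, 0 genes were called, and the smallest adjusted p by limma was 0.14, with Lgals3 at 0.86.

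Lgals3 encodes galectin-3, a lectin that binds sugars on damaged membranes and marks phagocytic microglia. Its relative log2 values were 0.66, 0.34, 0.37 and 0.42 in the older mice (wild type replicates 1 and 2, then mutant replicates 1 and 2). They were -0.34, -0.44, -0.45 and -0.34 in the younger mice (wild type replicates 3 and 4, then mutant replicates 3 and 4). The wild type of 26 months was highest, and a gap of 0.67 parted the age classes. Lgals3 rose by 0.84 (SE 0.077, limma adjusted p = 0.0070), which is 1.79-fold. The difference was 0.89 in wild types and 0.79 in mutants.

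Cd68 encodes macrosialin, a glycoprotein of endosomes and lysosomes in macrophages. In the same order of mice, its values were 0.36, 0.17, 0.27 and 0.60 in the older and -0.50, -0.49, -0.17 and -0.32 in the younger mice. Older mutant replicate 2 was highest, both younger wild types were lowest, and the classes did not overlap. Cd68 rose by 0.72 (SE 0.083, limma adjusted p = 0.028) or 1.65-fold, with 0.76 in wild types and 0.68 in mutants. It was called in 1 of 8 fits that left out an array, and its difference there ran from 0.66 to 0.80.

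Lyz2 and Lyz1 encode lysozymes, enzymes that cleave bacterial cell walls, and Lyz2 is the form of macrophages. Lyz2 values were 0.45, 0.28, 0.25 and 0.42 in the older and -0.38, -0.53, -0.25 and -0.74 in the younger mice. Younger mutant replicate 4 was the lowest array. Lyz2 rose by 0.82 (SE 0.10, limma adjusted p = 0.029) or 1.77-fold, and was called in 1 of 8 fits that left out an array (0.73 to 0.92).

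Lyz1 values, the means of 3 probe sets, were 0.33, 0.19, 0.23 and 0.45 in the older and -0.32, -0.25, -0.22 and -0.34 in the younger mice. Lyz1 rose by 0.58 (SE 0.070, limma adjusted p = 0.028) or 1.5-fold, and was called in 0 of 8 fits that left out an array (0.54 to 0.62). Its probe sets disagreed: 2 of a design that can also bind related transcripts differed by 0.84 and 0.80 without overlap, and the gene-specific one by 0.12 with overlapping ages. Signal of Lyz1 and of its near copy Lyz2 cannot be told apart on the first 2.

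The stretches just before the start sites of the 4 genes are printed because these are the genes called, Lyz1 with the limit just given. They are the 250 bases before the RefSeq start (build GRCm38.p6), 5′ to 3′ on the gene's strand: Lgals3 at chr14:47373610-47373859 (plus strand), Cd68 at chr11:69666171-69666420 (minus strand), Lyz2 at chr10:117282273-117282522 (minus strand) and Lyz1 at chr10:117292869-117293118 (minus strand). Capitals mark GAGGAA, the core of the element bound by the macrophage factor PU.1, and AGGAAGT, a core bound by the wider ETS family, each searched on both strands.
Lgals3: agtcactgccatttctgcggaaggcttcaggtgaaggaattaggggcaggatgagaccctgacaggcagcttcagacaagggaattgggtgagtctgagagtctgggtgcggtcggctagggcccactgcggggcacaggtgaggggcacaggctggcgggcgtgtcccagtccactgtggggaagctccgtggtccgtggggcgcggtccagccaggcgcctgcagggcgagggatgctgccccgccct
Cd68: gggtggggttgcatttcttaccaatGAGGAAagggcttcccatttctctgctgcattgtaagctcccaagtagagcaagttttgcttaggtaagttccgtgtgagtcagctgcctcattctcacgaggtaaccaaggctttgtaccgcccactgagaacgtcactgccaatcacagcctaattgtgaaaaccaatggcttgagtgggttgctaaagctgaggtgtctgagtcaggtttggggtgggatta
Lyz2: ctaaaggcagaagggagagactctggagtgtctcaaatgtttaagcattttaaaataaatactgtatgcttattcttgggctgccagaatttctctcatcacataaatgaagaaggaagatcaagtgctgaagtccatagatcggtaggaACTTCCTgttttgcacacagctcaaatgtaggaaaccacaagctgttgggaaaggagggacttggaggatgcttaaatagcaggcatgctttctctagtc
Lyz1: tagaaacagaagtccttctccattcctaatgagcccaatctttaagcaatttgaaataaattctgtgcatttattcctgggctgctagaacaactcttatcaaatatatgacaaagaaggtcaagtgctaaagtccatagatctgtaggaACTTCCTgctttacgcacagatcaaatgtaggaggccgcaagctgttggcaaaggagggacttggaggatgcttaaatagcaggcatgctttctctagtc

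The Lyz1 and Lyz2 stretches were identical in 79.4% of alignment columns, against 48.1% for Lgals3 and Cd68. Both lysozyme stretches held AGGAAGT on the opposite strand, printed as ACTTCCT, with its first printed letter 100 bases before the start. Cd68 held GAGGAA, 225 bases before the start, and the Lgals3 stretch held neither. Of 32851 RefSeq promoter windows of the same length, 23.3% held GAGGAA and 7.7% held AGGAAGT. The E box CACGTG, found before many lysosomal genes, was in 6.0% of the windows and in 0 of these 4. The search for AGGAAGT was added after the sequences had been read, and a match is a description of letters, not of binding.

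The 8 genes next in order of p among those higher in the older mice missed the threshold: Pygl, Ctss, Clec7a, Mpeg1, C1qa, Tyrobp, Atp6v0d2 and Cst7. All 8 parted the age classes. By limma, the adjusted p was 0.029 for Lyz2, the last gene called, and 0.075 for Pygl, the first not called. Pygl, the liver form of glycogen phosphorylase, was at 0.17, 0.19, 0.21 and 0.33 in the older and -0.18, -0.17, -0.25 and -0.21 in the younger mice, a difference of 0.43 (SE 0.060). Ctss, the lysosomal protease cathepsin S, was at 0.13, 0.09, 0.27 and 0.31 against -0.23, -0.24, -0.09 and -0.15, a difference of 0.38 (SE 0.055, limma adjusted p = 0.083). Both older mutants lay above both older wild types in Ctss. Clec7a, the receptor dectin-1 of myeloid cells, was at 0.42, 0.13, 0.19 and 0.27 against -0.34, -0.36, -0.31 and -0.13, a difference of 0.54 (SE 0.079, limma adjusted p = 0.083). Its lowest older array was wild type replicate 2 and its highest younger array mutant replicate 4. Mpeg1, perforin-2 of macrophages, differed by 0.45 (SE 0.067, limma adjusted p = 0.089). Atp6v0d2, a subunit of a proton pump of macrophages and osteoclasts, differed by 0.40 (SE 0.071, limma adjusted p = 0.28).

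**Figure D1:**
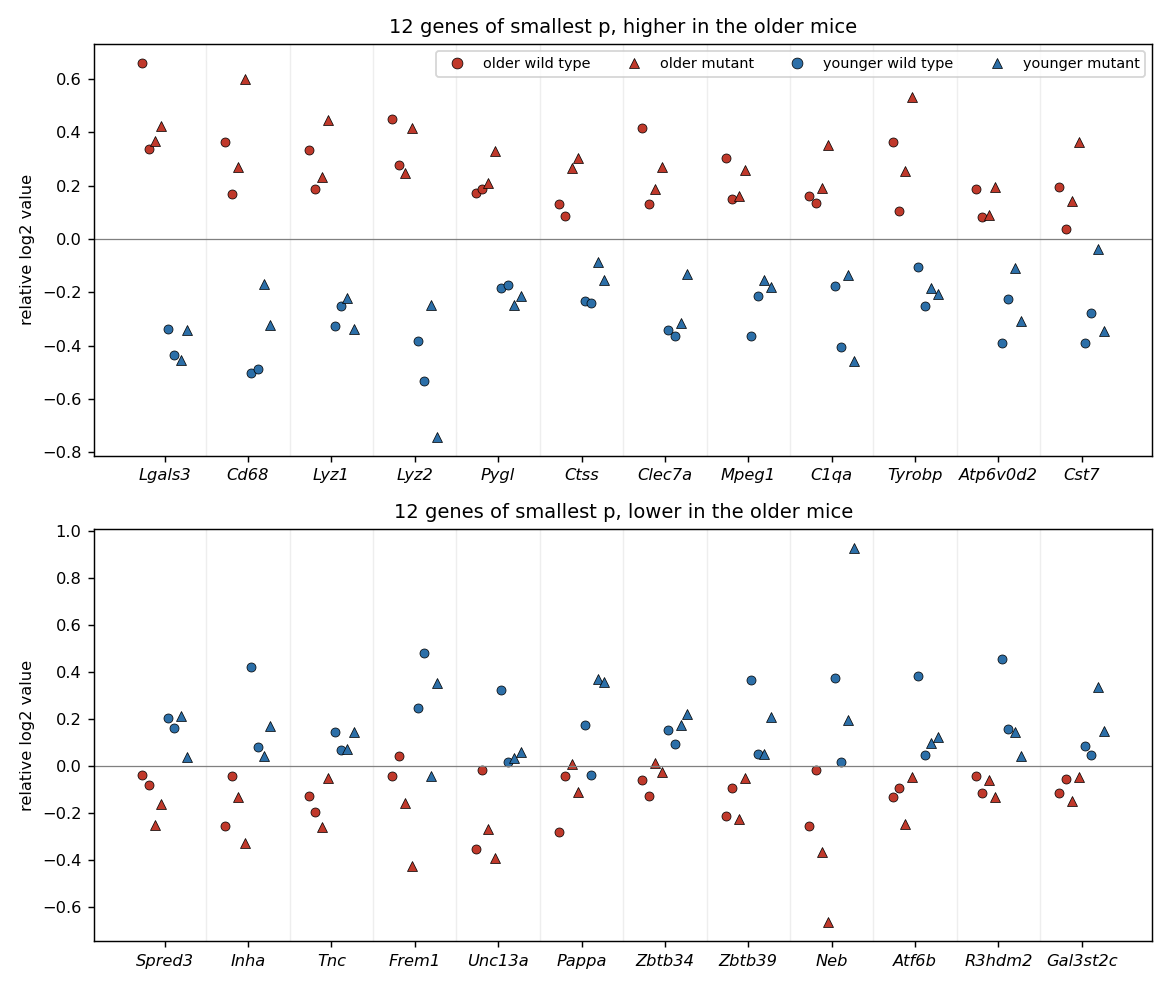
Relative log2 value (vertical axis) of the 12 genes of smallest p that were higher (top) and the 12 that were lower (bottom) in the older mice, 1 point per array; circles are wild types, triangles mutants, red older and blue younger mice. The red points lie above the blue ones in all 12 higher genes, whereas Frem1 and Pappa overlap among the lower ones.

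Genes of microglia were higher in the older mice as a group. Of 25 measured members, 23 were above 0 with a median of 0.23, against 52.6% above 0 and a median of 0.005 over all genes. Leaving out 1 array, the median ran from 0.16 (without older mutant replicate 2) to 0.30 (without younger wild type replicate 4). Of the 25, 1 was called (Cd68) and 11 were higher without overlap, which is 44% against 1.49% of all genes. This and the other gene lists were chosen with earlier results of these data known, so such shares are descriptions and not tests. The chains of C1q, the recognition part of complement that microglia make in brain, differed by 0.51 for C1qa (SE 0.086), 0.47 for C1qc (SE 0.10) and 0.40 for C1qb (SE 0.087). C1qa was at 0.16, 0.14, 0.19 and 0.35 in the older and -0.18, -0.41, -0.14 and -0.46 in the younger mice. All 3 chains parted the ages and none passed the adjusted threshold (limma adjusted p from 0.22 to 0.57). Tyrobp, the signalling adaptor of Trem2, was at 0.36, 0.10, 0.26 and 0.53 against -0.10, -0.25, -0.18 and -0.21, a difference of 0.50 (SE 0.086, limma adjusted p = 0.22). Trem2, a lipid-sensing receptor, differed by 0.23 (SE 0.064), the fractalkine receptor Cx3cr1 by 0.30 (SE 0.093) and the Fc receptor Fcgr3 by 0.38 (SE 0.090), without overlap and without a call. The probe sets of Trem2 disagreed, at 0.40 without overlap and 0.061 with overlapping ages. P2ry12, a purine receptor, differed by 0.16 (SE 0.11) and Tmem119, a surface protein, by -0.07 (SE 0.093), and both overlapped between ages. In RNA of whole cerebellum, more cells of a type and more RNA per cell cannot be told apart.

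Among genes of disease-associated microglia, the phagocytic state, 21 of 22 were above 0 (median 0.21, where 52.6% of all genes were above 0). Of them, 2 were called (Lgals3 and Lyz2, against 0.022% of all genes) and 9 were higher without overlap (against 1.49%). Leaving out 1 array, the median ran from 0.17 (without younger mutant replicate 4) to 0.26 (without younger mutant replicate 3). Cst7, an inhibitor of cysteine proteases, was at 0.20, 0.04, 0.14 and 0.37 in the older and -0.39, -0.28, -0.04 and -0.35 in the younger mice, a difference of 0.45 (SE 0.084, limma adjusted p = 0.38). Cd52, a surface glycoprotein of leukocytes, was at 0.45, 0.05, 0.44 and 0.40 against -0.43, -0.05, -0.07 and -0.10, a difference of 0.50 (SE 0.10, limma adjusted p = 0.51). Older wild type replicate 2 and younger wild type replicate 4, of 24 and 23 months, were nearest to each other in Cd52. Gpnmb, a glycoprotein of phagocytes, differed by 0.28 (SE 0.059), lipoprotein lipase (Lpl) by 0.42 (SE 0.090) and Cybb, the catalytic subunit of the phagocyte oxidase, by 0.38 (SE 0.086). Apoe, a lipid carrier, differed by 0.20 (SE 0.060), with older values from 0.03 to 0.07 and younger values from -0.20 to -0.03. These 4 genes parted the ages, at limma adjusted p-values from 0.52 to 0.99.

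Complement, lysosomal and reactive astrocyte genes lay the same way, with 0 calls in each list. Of 17 complement genes, 15 were above 0 (median 0.17) and 7 were higher without overlap, against 1.49% of all genes here and in the next lists. C1qa is on this list as well as on the microglia list, so the 7 are not all further genes. Itgb2, the shared chain of the complement receptors of leukocytes, differed by 0.40 (SE 0.083), and the C1 inhibitor Serping1 by 0.30 (SE 0.089). Of 26 lysosomal hydrolases and cathepsins, 21 were above 0 (median 0.09) and 6 were higher without overlap, and the median was 0.055 without older wild type replicate 1. Cathepsin H (Ctsh) differed by 0.38 (SE 0.078) and Grn, the precursor of granulins, by 0.22 (SE 0.059), whereas cathepsin D (Ctsd), at 0.22 (SE 0.084), overlapped between ages. Of 26 reactive astrocyte genes, 24 were above 0 (median 0.13) and 7 were higher without overlap, and the median was 0.084 without older mutant replicate 2. The sphingosine-1-phosphate receptor S1pr3 differed by 0.37 (SE 0.070), Aspg, an asparaginase, by 0.29 (SE 0.066), the metalloproteinase inhibitor Timp1 by 0.37 (SE 0.096) and the protease inhibitor Serpina3n by 0.24 (SE 0.071). Marker genes of Bergmann glia and astrocytes as cell types did not lie this way. Of these 24 genes, 11 were above 0 and 13 below (median -0.016), and 2 were higher without overlap.

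Gfap, the intermediate filament of astrocytes, gave a different value on each of its probe sets. The mean of its 3 probe sets differed by 0.31 (SE 0.18, limma adjusted p = 0.99) with overlapping ages. On 1 probe set the values were 0.23, 0.16, 0.36 and 0.46 in the older and -0.47, -0.37, -0.21 and -0.16 in the younger mice, a difference of 0.61 that was called when each probe set was fitted on its own (limma adjusted p = 0.020). The other 2 differed by 0.20 and 0.14 with overlapping ages. On these 2, younger wild type replicate 3 was the highest array, at 0.90 and 0.98, and on the first it was the lowest.

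Averaged over the members of a list on each array, 7 of 47 gene lists were higher in every older than in every younger mouse, and 0 were lower throughout. They were microglia, disease-associated microglia, complement, lysosomal hydrolases, reactive astrocytes, glucocorticoid-responsive genes and textbook brain ageing genes, and several share members. The means for disease-associated microglia were 0.21, 0.09, 0.10 and 0.15 in the older and -0.16, -0.14, -0.05 and -0.20 in the younger mice. Those for microglia were 0.12, -0.03, 0.11 and 0.31 against -0.15, -0.14, -0.09 and -0.07, with older mutant replicate 2 highest.

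**Figure D2:**
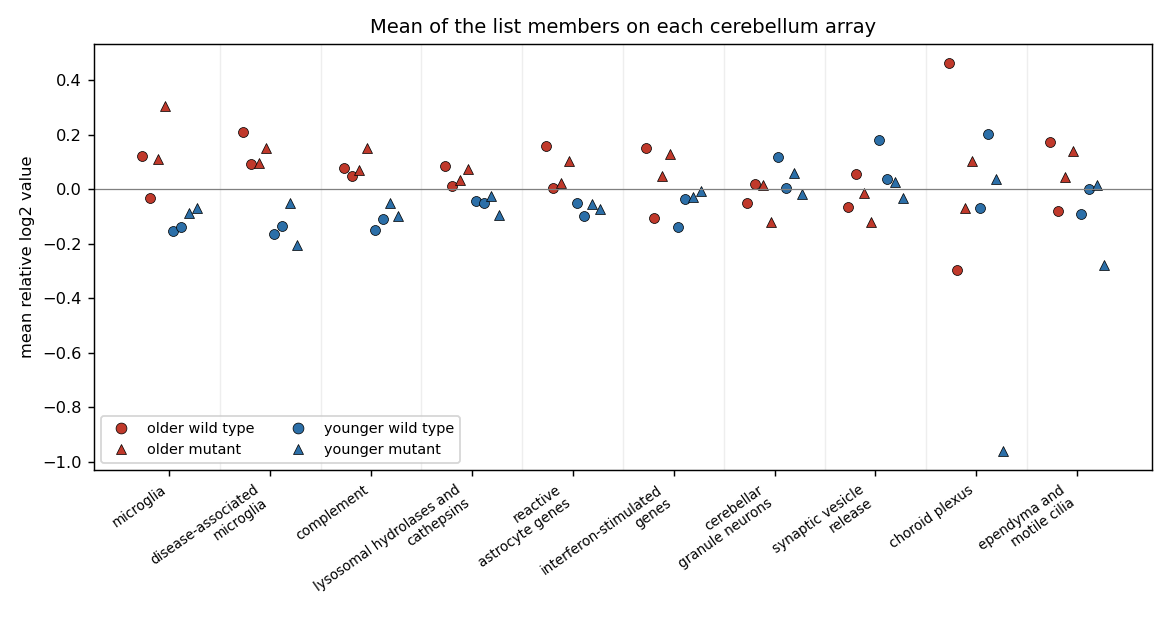
Mean relative log2 value of the list members (vertical axis) on each cerebellum array for 10 gene lists; circles are wild types, triangles mutants, red older and blue younger mice. The first 5 lists have every red point above every blue one, and the choroid plexus point at -0.96 is younger mutant replicate 4.

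Interferon-stimulated genes were above 0 in 26 of 28 (median 0.11), yet 0 of them parted the ages. The median was 0.070 without older wild type replicate 1 and 0.17 without older wild type replicate 2. Their array means were 0.15, -0.11, 0.05 and 0.13 in the older and -0.14, -0.04, -0.03 and -0.01 in the younger mice, so older wild type replicate 2 lay among the younger mice. Ifi27, an interferon-induced membrane protein, differed by 0.25 (SE 0.10) and Irf7, a transcription factor of the response, by 0.17 (SE 0.080). Neither was called.

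Genes of tissue at the borders of the cerebellum varied with single mice. All 23 choroid plexus genes were above 0 (median 0.19), and 0 parted the ages. Their array means ran from -0.30 to 0.46 in the older and from -0.96 to 0.20 in the younger mice, and their median difference was 0.003 in wild types and 0.44 in mutants. Ttr, transthyretin, the main secreted product of the choroid plexus, was at -3.02 on younger mutant replicate 4 and between -0.23 and 0.25 on the other 7 arrays. Its difference was 0.72 (SE 0.53) with all arrays and -0.05 without that one, and the choroid plexus median was then -0.0076. That median was 0.10 without older wild type replicate 1 and 0.37 without older wild type replicate 2. Ependymal genes were above 0 in 21 of 23 (median 0.09) and genes of meninges and fibroblasts in 18 of 21 (median 0.15), with 1 member of each higher without overlap (1.49% of all genes were). The meningeal median was 0.032 without older mutant replicate 2, whose array mean of 0.30 was the highest. The ependymal median was 0.058 without older wild type replicate 1, 0.052 without younger mutant replicate 4, and 0.15 without older wild type replicate 2 or younger mutant replicate 3. Genes of border macrophages and leukocytes were above 0 in 21 of 22 (median 0.11) with 0 apart. The part of these tissues in the differences above was not tested. Without younger mutant replicate 4, Lgals3 differed by 0.87, Cd68 by 0.70, Lyz2 by 0.73 and Lyz1 by 0.55. With all arrays these were 0.84, 0.72, 0.82 and 0.58. Of these, only Lgals3 kept its call without that array.

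Most granule neuron and Purkinje cell genes lay slightly below 0 in the older mice. Of 23 granule neuron genes, 20 were below 0 (median -0.08) and 3 were lower without overlap (0.765% of all genes were). Of 20 Purkinje cell genes, 16 were below 0 (median -0.06), 0 were lower without overlap and 1 was higher without overlap (1.49% of all genes were). The medians were -0.053 for granule neurons without older wild type replicate 1 and -0.034 for Purkinje cells without younger mutant replicate 4. Genes of the postsynaptic density and glutamate receptors were also mostly below 0, in 17 of 23 (median -0.040), with 2 lower without overlap. Some neuronal lists were more even: 11 of 20 genes of cerebellar interneurons, 10 of 18 of GABA and glycine signalling and 9 of 18 of forebrain and midbrain neurons were below 0. Grm4, the glutamate receptor of parallel fibre terminals, was at -0.24, -0.09, -0.02 and -0.40 in the older and 0.21, 0.02, 0.15 and 0.09 in the younger mice, a difference of -0.30 (SE 0.087, limma adjusted p = 0.99). Cadps2, a factor of dense-core vesicle release, differed by -0.19 (SE 0.056). The array means of granule neuron genes overlapped, from -0.12 to 0.02 in the older and from -0.02 to 0.12 in the younger mice. Pcp2, a Purkinje cell marker, differed by 0.02 (SE 0.069) and Mbp, myelin basic protein, by 0.01 (SE 0.056), both within their error. Both signs turn under other settings given in the closing section.

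Synaptic vesicle genes were below 0 in 21 of 26 (median -0.07) and chaperones in 27 of 32 (median -0.07), each with 2 members lower without overlap (0.765% of all genes were). The synaptic median ran from -0.11 without older mutant replicate 1 to -0.046 without older wild type replicate 1 and -0.037 without younger wild type replicate 3. Unc13a, a priming factor of vesicles, was at -0.35, -0.02, -0.27 and -0.39 in the older and 0.32, 0.02, 0.04 and 0.06 in the younger mice, a difference of -0.37 (SE 0.089, limma adjusted p = 0.83). Older wild type replicate 2 and younger wild type replicate 4 were nearest to each other. Sv2a, a vesicle glycoprotein, differed by -0.13 (SE 0.054), the endoplasmic reticulum chaperones Calr by -0.33 (SE 0.11) and Hsp90b1 by -0.21 (SE 0.077). Younger wild type replicate 3, the array with the widest spread over all genes, was the highest of the 8 in Unc13a, Calr and Hsp90b1. Without it the medians were -0.054 for granule neurons and -0.048 for chaperones.

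**Figure D3:**
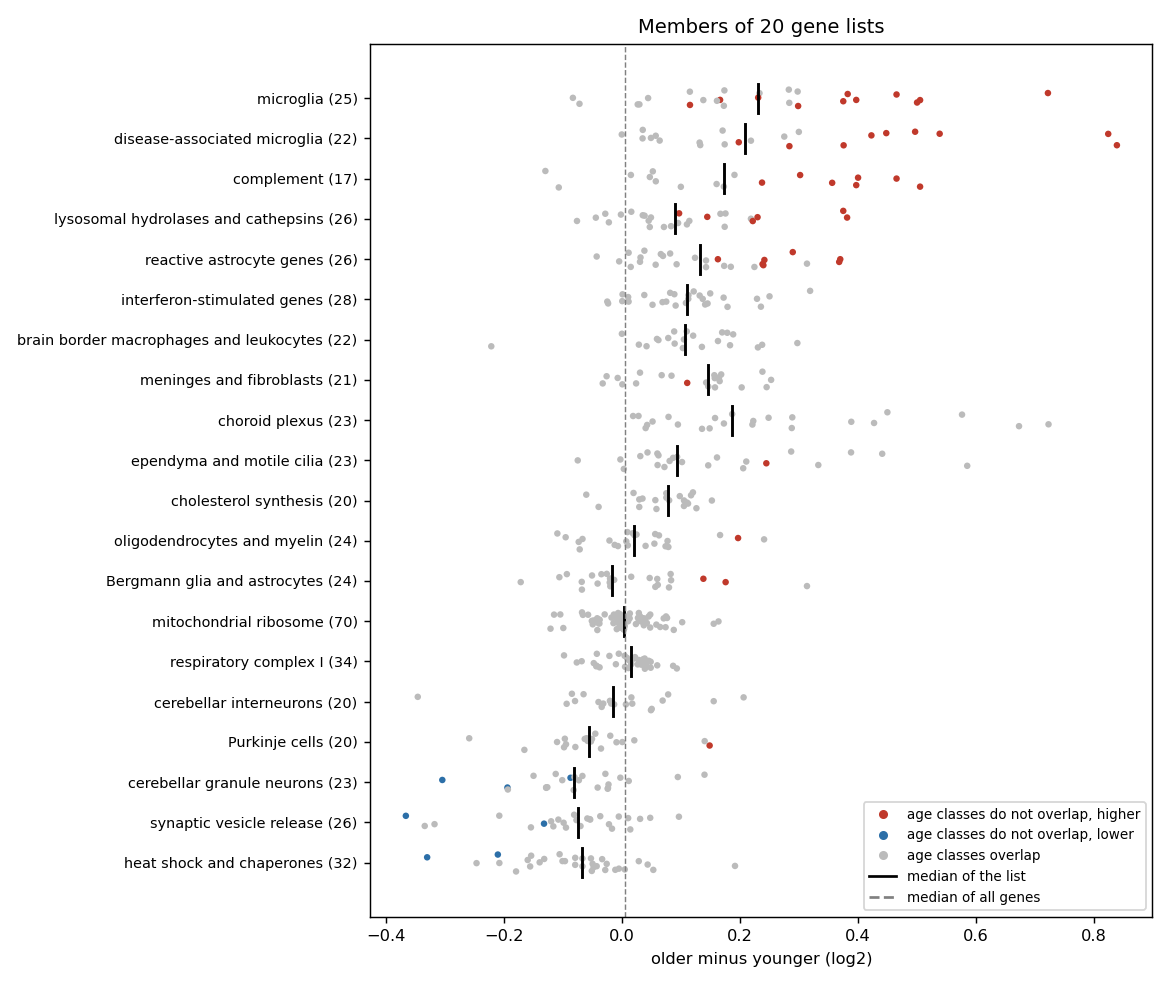
Age difference (older minus younger, log2, horizontal axis) of the measured members of 20 gene lists, 1 point per gene with the number of members after each name; red and blue mark genes whose age classes do not overlap, black bars the list medians and the dashed line the median of all genes. The medians of microglia, disease-associated microglia and complement lie at 0.23, 0.21 and 0.17, and those of granule neurons, synaptic vesicle genes and chaperones below 0.

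The 12 genes of smallest p that were lower in the older mice missed the threshold, at limma adjusted p-values from 0.57 to 0.99. Spred3, an inhibitor of Ras signalling, was at -0.04, -0.08, -0.25 and -0.16 in the older and 0.20, 0.16, 0.21 and 0.04 in the younger mice, a difference of -0.29 (SE 0.063). Inha, the alpha subunit of inhibin, differed by -0.37 (SE 0.089) and Tnc, the matrix protein tenascin-C, by -0.27 (SE 0.064). Neb, the thin-filament protein nebulin, differed by -0.71 (SE 0.19), with values from -0.67 to -0.02 in the older and from 0.02 to 0.93 in the younger mice. Neb was at -1.08 in mutants and -0.33 in wild types, the mutant mice holding both extremes. The others were Frem1, Unc13a, Pappa, Zbtb34, Zbtb39, Atf6b, R3hdm2 and Gal3st2c, with differences from -0.41 to -0.21.

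Genes of mitochondria, where Twinkle acts, had list medians near that of all genes. Of 70 genes of the mitochondrial ribosome, 37 were above 0 (median 0.003), and of 34 genes of respiratory complex I, 23 were (median 0.02). Of 39 genes of complexes II to V, 15 were above 0 (median -0.01), and of 23 genes of mitochondrial DNA replication and nucleotides, 7 were (median -0.03). The median of these 23 genes was 0.005 in wild types, with 12 above 0, and -0.059 in mutants, with 4 above 0. Their array means in mutants overlapped between ages, at -0.037 and 0.035 in the older and 0.0068 and 0.12 in the younger mice. The highest was younger mutant replicate 4, an array high in poly-A spike-ins, and its part in the mutant median was not tested. Leaving out 1 array moved the medians of the mitochondrial ribosome and complex I to either side of 0, from -0.020 to 0.038 and from -0.0044 to 0.047. In these 4 lists, 0 members were called and 0 parted the ages. Cholesterol synthesis genes were above 0 in 18 of 20 (median 0.08), with 0 apart, and the median was 0.043 without older wild type replicate 1 and 0.048 without older mutant replicate 2. Senescence genes and p53 targets were above 0 in 14 of 24 (median 0.01), with 0 apart.

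Of 25 measured textbook brain ageing genes, a list made with earlier results of these data known, 22 were above 0 (median 0.16), 3 were called (0.022% of all genes were) and 8 were higher without overlap (1.49% of all genes were). Apod, a lipid carrier of glia, differed by 0.20 (SE 0.072) without overlap, although its probe sets disagreed, at 0.34 without overlap and 0.055 with overlap. Cd74, the invariant chain of antigen presentation, differed by 0.24 (SE 0.096) with overlap and was highest, at 0.44, in the wild type of 26 months. Neither was called. Ccn2, a matricellular growth factor, differed by 0.56 (SE 0.13, limma adjusted p = 0.68) without overlap, and Arc, an activity-regulated gene, by -0.24 (SE 0.076).

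The age difference was then taken in each genotype, which share no array. With limma and 2 arrays per age class, 0 genes were called in wild types (0%) and 0 in mutants (0%), with 517 and 430 genes at an unadjusted p under 0.05. The mutant minus wild type difference of the age differences gave 0 calls (0%) and 291 genes at an unadjusted p under 0.05, and its median SE was 0.15. Across the 18181 genes, the 2 age differences had a Pearson r of 0.18 and a Spearman rho of 0.16, as a description, since genes are not independent replicates. The r was 0.019 without wild type replicate 1 and 0.018 without wild type replicate 3. Of the 100 genes highest in wild types, 73 were above 0 in mutants, where 50.1% of all genes were. Of the 100 highest in mutants, 81 were above 0 in wild types, where 53.4% of all genes were. The median of the microglia list was 0.17 in wild types and 0.20 in mutants, and that of disease-associated microglia 0.23 and 0.18.

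**Figure D4:**
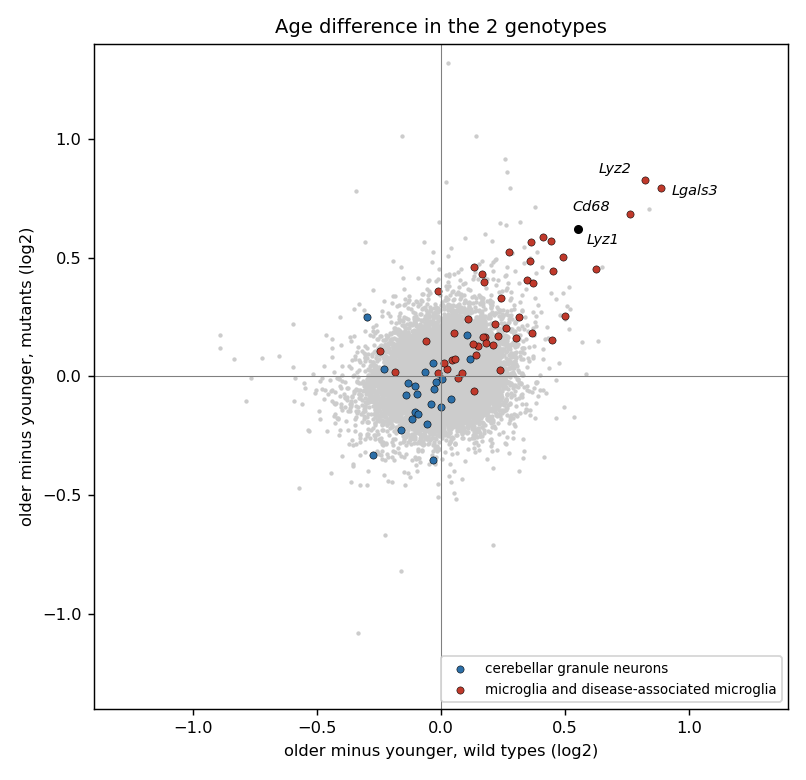
Older minus younger (log2) in wild types (horizontal axis) and in mutants (vertical axis), 1 point per gene; grey are all genes (3 lie beyond the axes), red the microglia and disease-associated microglia lists, blue granule neuron genes and black Lyz1. Lgals3, Cd68, Lyz2 and Lyz1 lie at the upper right, at 0.55 or more in both genotypes.

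The genes of smallest p for the genotype difference had opposite or unequal age differences, and none was called (smallest limma adjusted p 0.99981). 4933416I08Rik was at 0.41 in wild types and -0.34 in mutants, a mutant minus wild type difference of -0.75 (SE 0.14). Rnf183, Cd209c, Pcsk1 and Ucn3 lay the same way, at -0.65 to -0.52. Lamp5, a lysosome-associated membrane protein of neurons, was at -0.89 in wild types and 0.12 in mutants, a difference of 1.01 (SE 0.22). Alas2, the haem synthesis enzyme of red cell precursors, was at 0.47 and 0.19 in older and 1.25 and 0.98 in younger wild types and from -0.34 to -0.19 in the 4 mutants, a difference of 0.68 (SE 0.17). Mup5, Ppifos and Ube2c followed at 0.60, 0.57 and 0.52.

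The hippocampus arrays hold mice of the same ages and genotypes. The labels do not say whether both regions come from the same animals, so like values in both need not be independent. The cerebellum minus hippocampus difference of the age differences gave 0 calls in 18168 genes (0%), with 735 at an unadjusted p under 0.05 and a smallest limma adjusted p of 0.94. Older minus younger was 0.84 in cerebellum and 0.85 (SE 0.18) in hippocampus for Lgals3. It was 0.72 and 0.79 for Cd68, 0.82 and 1.35 for Lyz2, and 0.54 and 0.97 for Clec7a. Pygl was at 0.43 and -0.12, and Lpl at 0.42 and -0.36. In the main fit, 0 genes were called in hippocampus (0%). The limma adjusted p there was 0.20 for Lgals3, 0.056 for Cd68, 0.075 for Lyz2 and 0.079 for Clec7a. The median of disease-associated microglia was 0.21 and 0.27, and that of reactive astrocyte genes 0.13 and 0.33. In hippocampus, granule neuron genes were above 0 in 20 of 23 (median 0.29) and Purkinje cell genes in 18 of 20 (median 0.25), without a call. Wild type replicate 1 of hippocampus, an older mouse, had the widest spread over all genes, at 0.26. Without it these medians were 0.034 and 0.073, that of disease-associated microglia 0.18 and that of reactive astrocyte genes 0.20. Lgals3 was then at 0.58, Cd68 at 0.63, Lyz2 at 1.03, Clec7a at 0.72, Pygl at -0.0014 and Lpl at -0.17, and 0 genes were called for the difference between regions.

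**Figure D5:**
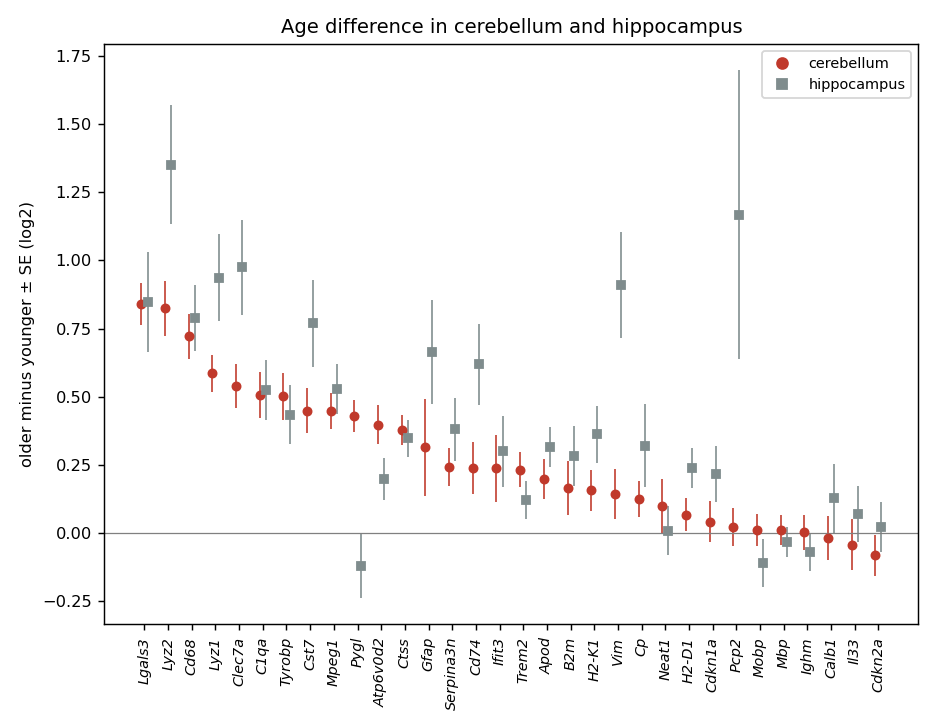
Older minus younger (log2, vertical axis) with its SE for the 12 higher genes of smallest p and the textbook brain ageing genes; red circles are cerebellum and grey squares hippocampus, n = 4 arrays per age class in each. Lgals3 is at 0.84 and 0.85, Pygl at 0.43 and -0.12, and Pcp2 at 0.02 and 1.17 (0.35 in hippocampus without its wild type replicate 1).

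The genes of smallest p for the difference between regions were Ttc23l, Spaca9, 4930483O08Rik, Slc25a13 and Klkb1 on the side higher in cerebellum, and Arap1, Vgf, R3hdm2, Iqsec3 and Tie1 on the other. Ttc23l was at 0.24 in cerebellum and -0.08 in hippocampus. Slc25a13, the mitochondrial carrier citrin, was at 0.31 and -0.19. Vgf, a neuropeptide precursor, was at -0.36 and 0.24. None of the 10 was called.

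With age in months in place of classes, 1 gene was called, Cd52, at 0.17 per month (limma adjusted p = 0.0072). Lgals3 was at 0.24 per month (limma adjusted p = 0.11) and Cd68 at 0.21 per month (limma adjusted p = 0.14). Mice of 24 months against mice of 21 months, 3 arrays against 3, gave 0 calls, with Lgals3 at 0.75 (limma adjusted p = 0.050) and Cd68 at 0.68 (limma adjusted p = 0.22). Among wild types, Lgals3 was at 0.66 at 26 months and 0.34 at 24 months, and at -0.44 at 23 months and -0.34 at 21 months.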

How the data were processed

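The authors deposited 1 table of relative log2 values for 45101 probe sets on 16 Affymetrix arrays, made with GCOS 4.0 per the submitters' processing notes. RNA was extracted with Trizol and 5 ug was labelled, per the labels' protocols. The log base is not given in the sources used here. If it were e, log2 differences would be 1.44 times those printed. Of the probe sets, 99.9% had a median within 1e-05 of 0 over the 8 arrays of a region.

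Controls (64) and 76 other probe sets with an empty cerebellum value were left out. All 77 empty values, 1 of them of a control, were on wild type replicate 3. Of 44961 analysed, 34887 carried 1 gene symbol, 932 several and 9142 none, and those with 1 were averaged to 18181 genes with no filter on low values. limma 3.58.1 (R 4.3.3) was fitted with age class and genotype, with the genotypes apart, or over 16 arrays with region, and p-values were adjusted by Benjamini-Hochberg (threshold 0.05). The fit was run on simulated data with independent noise for each gene and array. These held none of the array differences described above, so they do not check the calls.

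The comparison, gene lists and members were chosen with earlier results of these data known. Named are all called genes, the 12 of smallest p per direction, 5 per direction for each difference between genotypes or regions, up to 3 members of smallest p per list, the textbook ageing genes and Twnk. C1qb, Fcgr3, Cx3cr1, Tmem119, P2ry12, Cd52, Gpnmb, Lpl, Cybb, Apoe, Serping1, Ctsd, Ttr, Spink8, Prl, Fos, Etv5 and Slc2a13 fall outside this rule and were named after their values were seen. Alternatives are in the closing section. Hippocampus arrays were taken by title and tissue, although their descriptions name cerebellum.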

Additional observations from a re-analysis of the deposited data

Results flagged for a closer look

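Of 148 sets of 4 values (a gene or the mean of a gene list in 1 age class), 9 held a value far from the other 3 by Dixon's ratio at its 95% critical value, and chance alone flags about 5% of sets. In the older mice these were Cx3cr1 at 0.46 on mutant replicate 2, Cd52 at 0.051 on wild type replicate 2, Gpnmb at 0.22 on mutant replicate 1 and Twnk at -0.15 on wild type replicate 2. In the younger mice they were Unc13a at 0.32 and Cd52 at -0.43 on wild type replicate 3, and Apoe at -0.028 on mutant replicate 3. On younger mutant replicate 4, P2ry12 was at 0.26 and Ttr at -3.02.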

How the results depend on the processing

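Of 61 genes of the age comparison, 57 kept their sign under all 21 alternatives, and each of the 4 called genes lost its call under 1 or more. Many of these genes were named for a small p in this comparison or after their values were seen. Some alternatives, such as the replicate block or no genotype term, left the difference itself unchanged. Kept signs are therefore largely fixed in advance and are not support. The 4 calls became 0 with all 16 arrays in 1 fit, 1 with age in months, 0 for 24 against 21 months and 0 without both arrays high in poly-A spike-ins, an alternative chosen after seeing the data. Leaving out 1 array at a time gave 1 to 2 calls, 0 to 8 in wild types (8 without wild type replicate 4), 0 to 1 in mutants and 0 to 1 for the genotype difference (Spink8 without mutant replicate 1, Ttr without mutant replicate 3). Same-numbered arrays did not deviate together (r = -0.20 in the older and -0.067 in the younger mice), so the numbers were not taken to pair mice. The replicate block gave 8 calls, and crossing the pairing in the older mice, chosen after seeing the data, gave 4.

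Signs turned for Tmem119 (-0.13 to 0.023 over single arrays left out, above 0 without wild type replicate 2), Mbp (-0.013 to 0.024, below 0 without mutant replicate 1, at -0.0066, or 4; -0.00086 per month of age and -0.0029 without both spike-in arrays), Pcp2 (-0.028 without mutant replicate 3 to 0.082 without mutant replicate 4; -0.0011 for the median over probe sets) and Ttr (-0.047 without mutant replicate 4 to 1.19 without mutant replicate 3; -0.049 without both spike-in arrays). With every probe set fitted on its own, the median was 0.14 for lysosomal genes and -0.14 for chaperones. These medians use the probe set of smallest p for each gene, which favours values far from 0, so they do not show larger differences. Leaving out 1 array, the lysosomal median ran from 0.055 to 0.10 and the r between genotypes from 0.018 to 0.27. The causes were not tested. Signal over background is not held in relative values, which limits what can be said of dim genes.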

Other observations

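The gene farthest below 0 in the older mice was Prl, prolactin, a hormone of the pituitary, at -1.21. Fos, an immediate early gene, was at 0.77, and Etv5 and Slc2a13 were at -0.49 and -0.52. None of these was called.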
